A study of Mus musculus with 5 samples.

Results

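Gene expression in 2 Tmsb4x knockout clones of B16F1 cells, a mouse melanoma line, was set against that of wild-type B16F1 cells given CCG1423, an inhibitor of MRTF signalling. This comparison uses 3 of the 5 arrays of the series: KO clone 1, KO clone 2 and wild type with CCG1423, 1 array each. All 3 cultures received TGF-β1, at 10 ng/ml for 2 days, and the wild type also received 10 µM CCG1423. The other 2 arrays, wild type with vehicle and wild type with TGF-β1, are given beside the results to place the wild-type level. Genes were kept when the scanner software flagged their probe as well above background on all 3 arrays, which left 12121 genes.

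The labels set some limits on these groups. Each knockout array is 1 clone, and how the clones were made and which part of Tmsb4x was edited are not given in the sources used here. The title and sample labels say knockout, whereas knockdown is the word of the design text. The CCG1423 array has both agents in its title and source name, which spells the compound differently, and CCG1423 alone in its treatment field; it was taken as both. No label names a repeat culture of either clone or of wild type with CCG1423. The spread behind each p-value comes from gaps between the 2 clones, 1 array each, mostly pooled over all genes and less from the gene's own gap. Clone differences and technical ones cannot be told apart in it, and it is that of these samples only. The 5 arrays share a slide and a scan, and a batch effect could not be examined.

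Thymosin β4, the peptide encoded by Tmsb4x, binds monomeric actin and keeps it from polymerizing. Monomeric actin in turn binds the coactivators MRTF-A and MRTF-B and holds them away from SRF, the transcription factor that drives many genes of the actin cytoskeleton and of smooth muscle. TGF-β signals through SMAD proteins and through the actin cytoskeleton, and so reaches MRTF as well. Loss of thymosin β4 and CCG1423 therefore bear on the same pathway at different points. The comparison gives the genes that differ between 2 knockout clones and 1 wild-type culture with CCG1423. The series holds no unedited clone, so effects of Tmsb4x loss and of deriving a clone cannot be told apart.

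A level here is the log2 processed signal minus the 75th percentile of all probes on that array, so 0 is the 75th percentile. Levels of different genes come from different probes and are not comparable, and only differences within a gene are read. The 75th percentile itself was between 229.6 and 329.3 intensity units over the 5 arrays, lowest with CCG1423. The share of probes flagged well above background ran from 48.2% to 53.8%, and 0 spots were saturated.

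Tmsb4x itself had a level of 5.05 in wild type with vehicle and 7.12 with TGF-β1 alone, which became 6.79 when CCG1423 was added, against 5.44 for clone 1 and 4.28 for clone 2. Both clones were below the CCG1423 array and the TGF-β1 array, but clone 1 was above wild type with vehicle, and transcript remained measurable in both clones. The clones were 2.54-fold and 5.67-fold below the CCG1423 array, a mean log2 difference of -1.92 ± 0.43 (SE, adjusted p = 0.035, limma with Benjamini-Hochberg adjustment over the 12121 genes). Whether the probe lies in the edited part is not known, so this level does not check the loss of the protein. The related Tmsb10, also an actin monomer-binding thymosin, had levels of 9.24 with CCG1423, 9.22 in clone 1 and 8.96 in clone 2 (log2 difference -0.15, 95% confidence interval -0.97 to 0.68, adjusted p = 0.883).

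Melanocyte identity was checked on marker genes. All 7 melanocyte markers (Tyr, Tyrp1, Dct, Pmel, Mlana, Sox10 and Mitf) were measured on all 3 arrays. Of 7 fibroblast markers 1 was measured there (Col1a1), of 7 immune markers 3 (Itgam, Cd68 and Cd3e), of 6 epithelial markers 0 and of 5 endothelial markers 1 (Vwf). Ptprc, the pan-leukocyte surface phosphatase, was below that limit on each of the 5 arrays. Itgam had levels between 4.61 and 5.08 over all 5 arrays.

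Of the 12121 genes, 9321 differed from the CCG1423 array in the same direction in both clones, 5302 higher and 4019 lower, and 2800 differed in opposite directions. The clones share that array, so part of this agreement comes from its own error. In both clones 527 genes were 2-fold or more higher (4.35% of the genes tested) and 286 were 2-fold or more lower (2.36%). Between the clones, 489 genes differed by 2-fold or more (4.03%), and 19 genes were 2-fold or more from the CCG1423 array in opposite directions. The median absolute difference from the CCG1423 array was 0.38 (clone 1) and 0.37 (clone 2) in log2 units, against a median gap of 0.26 between the clones. Since the CCG1423 array also had the lowest 75th percentile, its overall brightness moves with this comparison, and the part of that in the counts was not tested.

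The test across all genes called 352 genes higher (2.9%) and 170 lower (1.4%) in the clones at an adjusted p under 0.05, each of them also 2-fold or more in both clones. The spread in this test comes from the 2 clones alone, with 1 residual degree of freedom, and the single CCG1423 array is assumed to vary like them. The fit draws each gene's spread toward a mean-variance trend over all genes, with 9.61 prior degrees of freedom beside that 1. Standard errors and intervals thus rest mostly on this trend. Gstm1, with a clone gap of 0.000, had an SE of 0.28. Calls fell to 47 higher and 31 lower when all probes of a gene were averaged, to 140 and 83 with another background correction, and to 189 and 113 without the mean-variance trend. The 2-fold counts were 490 and 292 under the first of these. Of 89 named genes that passed, 39 passed under every alternative fit; Tmsb4x, Mitf, Cdkn1a and Cnn2 are among those that did not. The smallest difference called was 1.16 on the log2 scale.

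**Figure D1:**
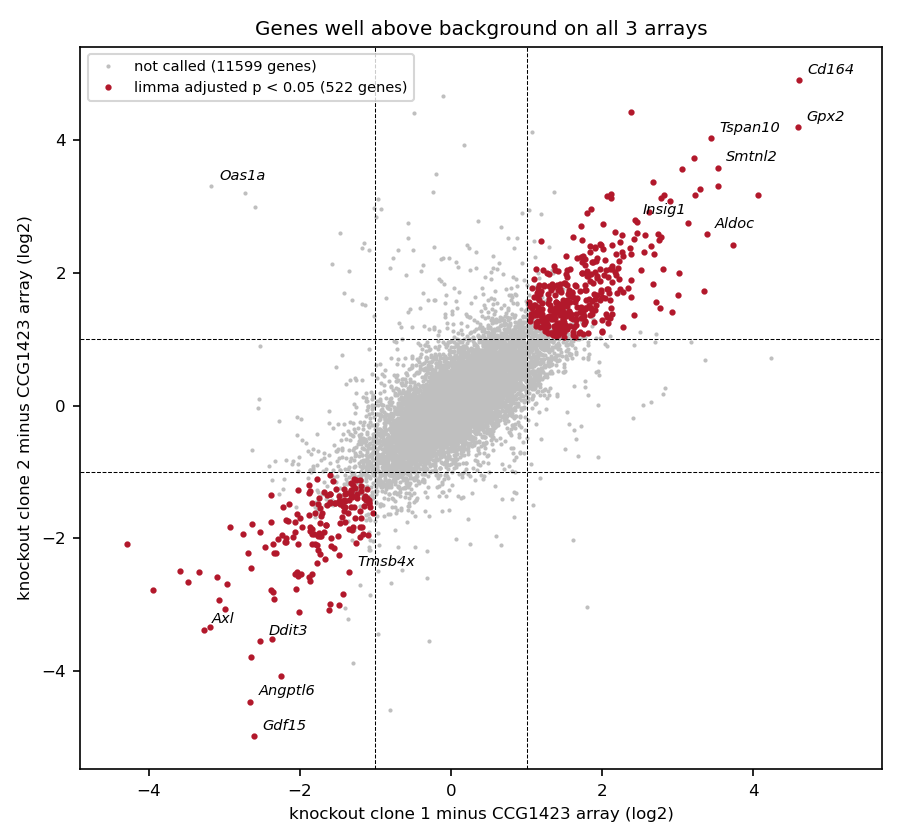
Log2 difference of each of the 12121 genes between knockout clone 1 and the CCG1423 array (x axis) and between knockout clone 2 and the CCG1423 array (y axis); dashed lines mark 2-fold and red points the 522 genes called by limma. Called genes lie in the corners where both clones differ in the same direction, and interferon genes such as Oas1a lie where the clones differ in opposite directions.

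Among the genes highest in the clones, Cd164, a sialomucin of endosomes and the cell surface, stood out. Wild type had a level of 4.77 with vehicle and 4.96 with TGF-β1, against 0.25 with CCG1423, 4.85 in clone 1 and 5.15 in clone 2. The CCG1423 array stood alone, and the other 4 arrays lay close together. The clones were 24.3-fold and 30.0-fold above it (log2 difference 4.75 ± 0.30, SE, adjusted p = 0.000106, limma), from 1 probe.

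Genes with the same arrangement, low on the CCG1423 array and close to wild type in the clones, included Rpph1, the RNA component of RNase P. Rpph1 had levels of 2.52, 2.99, 0.33, 2.51 and 2.61 in the order vehicle, TGF-β1, CCG1423, clone 1 and clone 2, which is the order used below. Arhgap21, a GTPase-activating protein, had 3.57, 3.98, 0.40, 3.61 and 4.13. Its call rests on the brighter of 2 measured probes: the log2 difference was 3.47 on that probe and -0.05 on the other. Sfpq, a splicing factor, likewise gave 2.99, 0.93 and 0.08 on its 3 probes. Probes of these genes thus disagree, and the level of the whole gene is uncertain.

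Other leading genes were above wild type in the clones as well as below it with CCG1423. Aldoc, the aldolase C of glycolysis, had levels of 2.31, 2.49, 1.72, 5.10 and 4.30, so that the clones were highest and the CCG1423 array lowest (log2 difference 2.98 ± 0.35, adjusted p = 0.00245, limma; both probes 2.98 and 3.21). Smtnl2, a smoothelin-like protein, had 3.12, 3.47, 1.19, 4.72 and 4.77 (3.56 ± 0.28, adjusted p = 0.000596). Pgp, a phosphatase of phosphoglycolate, had 4.91, 5.07, 3.26, 6.0 and 5.85. For these genes the difference between clones and inhibitor holds a shift on either side of the wild type.

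Tspan10, a tetraspanin of pigment cells, had levels of 3.37, 1.92, -0.31, 3.14 and 3.72, so the clones were near wild type with vehicle and the TGF-β1 array lay between them and CCG1423 (3.74 ± 0.32, adjusted p = 0.000596, limma). The glutathione S-transferases Gsta2 and Gm10639 followed this order too, with 2.91, 0.81, 0.05, 2.60 and 2.36 for Gsta2 and 3.99, 1.91, 0.99, 3.74 and 3.5 for Gm10639. They are near-identical copies whose probes may not tell them apart. Gpx2, a glutathione peroxidase, had -3.85, -1.18, -3.23, 1.36 and 0.96 and was highest in the clones (4.39 ± 0.38, adjusted p = 0.000596). Col2a1, a fibrillar collagen chain, had -4.74, -1.17, -3.29, 0.24 and 0.02, again highest in the clones. The remaining genes among the 15 highest were Ak4, Ccdc13, Grhpr, Bnip3 and Slc27a3, with log2 differences between 2.20 and 2.53.

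Axl is a receptor tyrosine kinase linked to invasive melanoma states. It was the lowest gene by the smaller of its clone differences, among genes with a level above the median. By the mean difference, Gdf15 (-3.79), Angptl6 (-3.56) and Sema3c (-3.36) were lower among called genes of any level. For Axl, wild type had a level of 2.30 with vehicle and 2.93 with TGF-β1, against 5.0 with CCG1423, 1.73 in clone 1 and 1.63 in clone 2. The CCG1423 array was highest and the clones lowest, 9.67-fold and 10.4-fold below it (log2 difference -3.32 ± 0.28, SE, adjusted p = 0.000596, limma); its other probe gave -2.14. Timp3, an inhibitor of matrix metalloproteinases, had -0.06, 1.26, 3.48, 0.30 and 0.15 (-3.26 ± 0.30, adjusted p = 0.000766).

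Several genes were high on the CCG1423 array alone. Steap1, a metalloreductase, had 1.53, 0.80, 3.41, 0.77 and 0.97. Klf4, a transcription factor, had 1.56, 1.37, 3.70, 1.34 and 0.90. Gadd45a, a DNA damage and stress gene, had 1.00, 0.16, 3.52, 0.45 and 0.60 (-2.99 ± 0.30, adjusted p = 0.000969, limma). Chchd10, a mitochondrial protein, had 8.28, 7.38, 9.57, 7.71 and 7.69. In these genes the clones lay near 1 or both of the wild-type arrays without CCG1423.

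Rhox5, an X-linked homeobox gene, had the opposite arrangement. Its level was 6.26, 6.13 and 5.73 on the 3 wild-type arrays and 3.39 and 3.51 in the clones, so CCG1423 lay near wild type and the clones stood apart (-2.28 ± 0.29, adjusted p = 0.00379, limma; the other probe -2.35). Lrrc4b, a synaptic adhesion protein, had 2.58, 1.89, 2.69, 0.05 and -1.11, also low in the clones alone. Il6, the cytokine, had -6.49, -0.45, 0.14, -2.18 and -2.09, with the clones between vehicle and TGF-β1. Lysosomal Gpr137b (6.35, 5.28, 6.95, 4.77 and 4.89) was lowest in the clones, and the same order held for its copy Gpr137b-ps, whose probe may read both. The 15 lowest genes also held Angptl6, Cyb5r1, Zfr2, Phyhd1 and 2410006H16Rik, with log2 differences between -3.56 and -2.12.

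**Figure D2:**
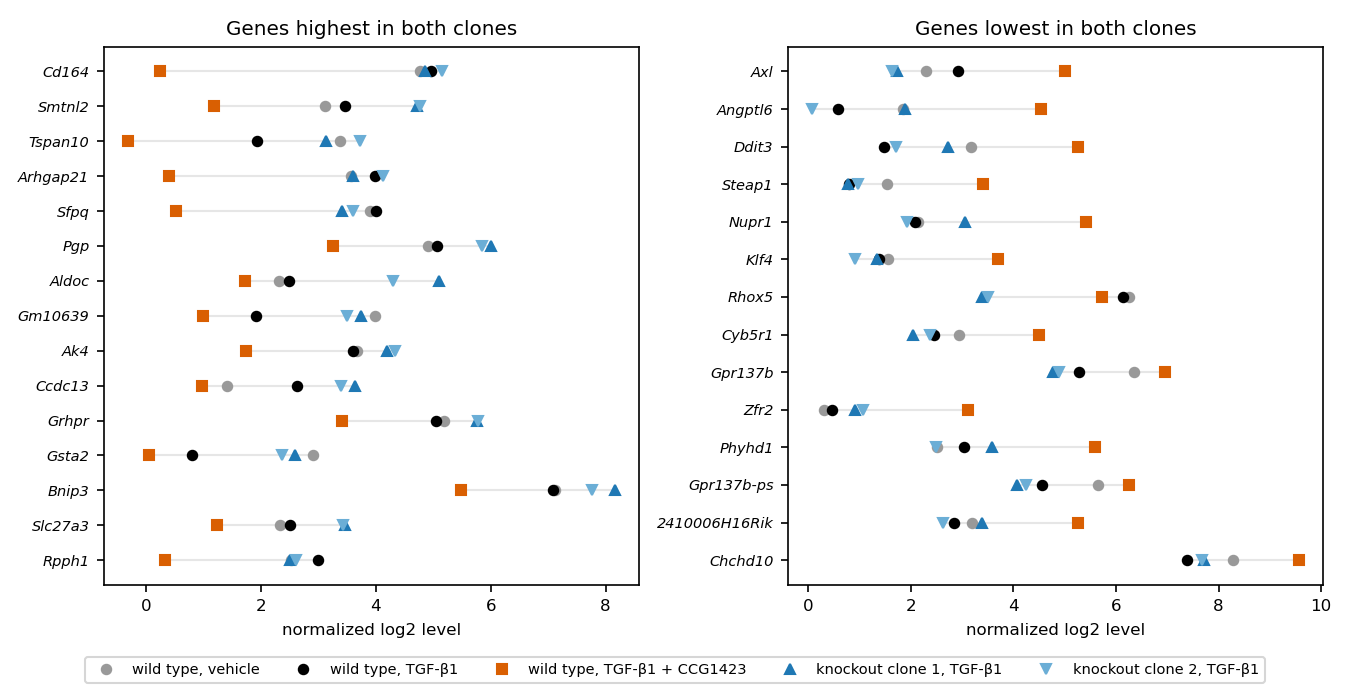
Normalized log2 level on the 5 arrays for the 15 genes highest (left) and 14 of the 15 lowest (right) in both clones relative to CCG1423; 1 marker is 1 array, and levels are compared within a gene only. The CCG1423 array (squares) is the lowest of the 5 in all 15 genes on the left and the highest in 13 of the 14 on the right, the exception being Rhox5.

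Gene lists are described by counts and medians, beside a median over all 12121 genes of 0.08 in clone 1 and 0.06 in clone 2. Over all genes, 5302 were above and 4019 below the CCG1423 array in both clones. Of all genes, 4.35% were 2-fold or more higher and 2.36% lower, and 2.9% passed the test higher and 1.4% lower. Each list count is read beside these shares. The lists were drawn up with earlier results of these data known. The CCG1423 and clone values relative to wild type with TGF-β1 share that array, and are given side by side.

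Genes of sterol synthesis and other targets of SREBP, the transcription factor of lipid synthesis, were higher in the clones. Of 34 measured members, 33 were above the CCG1423 array in both clones and 0 below; 18 were 2-fold or more higher in both and 18 passed the test (4 to 26 under the alternative settings). The list median was 1.22 in clone 1 and 1.28 in clone 2. Relative to wild type with TGF-β1 the median was -1.0 with CCG1423, 0.18 in clone 1 and 0.36 in clone 2.

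Insig1, the sterol-regulated anchor of SREBP in the endoplasmic reticulum, had levels of -0.18, 0.01, -1.78, 0.65 and 1.01 (log2 difference 2.61 ± 0.34, adjusted p = 0.00379, limma). The CCG1423 array was lowest, and both clones were above both wild-type controls. Nsdhl, a sterol dehydrogenase, had 1.5, 1.43, -0.13, 1.86 and 2.30. Mvd, which decarboxylates mevalonate diphosphate, had 1.69, 1.59, 0.15, 2.05 and 2.53. As in Insig1, CCG1423 was lowest and both clones were above both wild-type controls.

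Hmgcs1, which makes HMG-CoA, had 5.06, 4.80, 3.91, 5.18 and 5.25 (1.30 ± 0.29, adjusted p = 0.035, limma). Fasn, the fatty acid synthase, had 6.83, 6.46, 4.82, 5.99 and 6.52; its clones lay between CCG1423 and wild type or level with TGF-β1. The fatty acid desaturases Fads1 and Fads2 differed by 0.04 and 0.13. Fasn and the desaturases were picked after their values were seen.

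The integrated stress response, in which phosphorylation of eIF2α raises ATF4 and its targets, ran the other way. Of 35 measured members, 31 were below the CCG1423 array in both clones and 2 above; 13 were 2-fold or more lower and 13 passed the test lower (2 to 18 under the alternatives), while 1 passed higher. The list median was -0.92 in clone 1 and -1.17 in clone 2. Relative to wild type with TGF-β1 the median was 1.02 with CCG1423, 0.04 in clone 1 and -0.17 in clone 2.

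Ddit3, the stress transcription factor CHOP, had levels of 3.17, 1.47, 5.25, 2.73 and 1.70 (log2 difference -3.04 ± 0.39, adjusted p = 0.00379, limma). Nupr1, a stress-induced chromatin protein, had 2.15, 2.07, 5.42, 3.05 and 1.91. Gdf15, a secreted stress cytokine, had 0.36, -0.76, 2.22, -0.38 and -2.76, with the clones 6.08-fold and 31.6-fold below CCG1423. In all 3 genes the CCG1423 array was highest and clone 2 was lower than clone 1.

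Slc7a11, the cystine transporter, had -0.71, -2.57, 0.14, -1.93 and -2.40. Atf3, a stress transcription factor, had 1.60, 0.73, 2.51, 0.76 and 0.59. Wild type with vehicle lay above wild type with TGF-β1 in both of these. The transcript of Atf4 itself had 7.89, 7.44, 8.03, 7.83 and 7.41 and did not pass (-0.42 ± 0.35, adjusted p = 0.583, limma). Ddit4, an inhibitor of mTORC1 that is also a hypoxia gene, was the member that passed higher, with 5.64, 5.90, 5.4, 7.48 and 6.65.

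**Figure D3:**
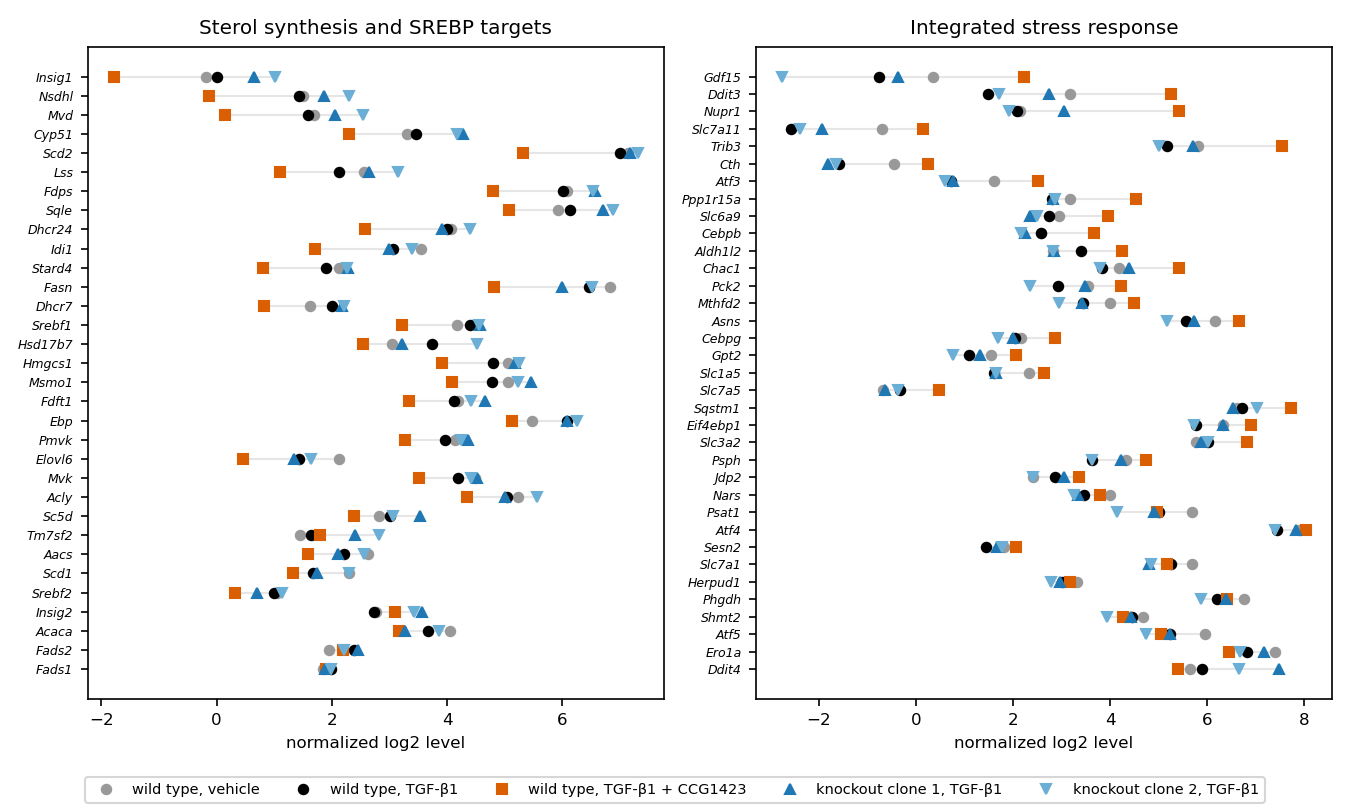
Normalized log2 level on the 5 arrays for 32 of the 34 measured genes of sterol synthesis and SREBP (left) and the 35 of the integrated stress response (right), ordered by the difference between clones and CCG1423; 1 marker is 1 array. CCG1423 (squares) is the lowest of the 5 arrays in 28 of the 32 sterol genes drawn and the highest in 26 of the 35 stress genes.

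The letters TGATGNAA, read on either strand, are those of the composite C/EBP-ATF element that ATF4 and CHOP can bind. They occur in 3.97% of all RefSeq promoter windows (250 bases before to 50 after the start, assembly GRCm38.p6) and in 2.7% of the measured genes with a window. Of the 29 stress response genes with a window, 9 hold them (31%), and 5 of the 12 that were 2-fold or more apart do. Those 5 are Nupr1, Slc7a11, Atf3, Trib3 and Chac1, a glutathione-degrading enzyme, all of which passed lower in the clones. The list was drawn up from genes of this response, so its share describes the list and not this comparison. In 4 of the 5 genes the match lies before the start. Their stretches, from genes 2-fold or more lower in both clones, are printed 5′ to 3′ on the gene's strand with the match in capitals. They lie at chr7:126625547-126625606 (Nupr1, minus strand), chr3:50443646-50443705 (Slc7a11, minus), chr1:191183410-191183469 (Atf3, minus) and chr2:119351023-119351082 (Chac1, plus).
Nupr1: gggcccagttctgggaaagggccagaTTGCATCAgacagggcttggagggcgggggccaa
Slc7a11: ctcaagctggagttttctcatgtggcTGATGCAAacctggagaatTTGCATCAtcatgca
Atf3: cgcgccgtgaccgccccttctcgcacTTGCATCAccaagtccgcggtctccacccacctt
Chac1: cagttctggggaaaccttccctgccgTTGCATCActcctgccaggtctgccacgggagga
Slc7a11 holds the letters in both orientations. A match describes the letters and is not a measured binding site. For the sterol list, the letters CACCCCAC of a sterol element were found in 1 of the 24 genes with a window (Hmgcs1). The share was 3.72% of the measured genes with a window and 2.87% of all windows.

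Genes of hypoxia and glycolysis, targets of the factor HIF-1 among them, were higher in the clones. Of 36 measured members, 32 were above the CCG1423 array in both clones and 3 below; 14 were 2-fold or more higher and 11 passed the test higher (4 to 17 under the alternatives), while 1 passed lower. The list median was 1.09 in clone 1 and 0.95 in clone 2. Relative to wild type with TGF-β1 it was -0.62 with CCG1423, 0.51 in clone 1 and 0.28 in clone 2.

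Bnip3, a mitophagy receptor, had levels of 7.11, 7.08, 5.47, 8.16 and 7.76 (log2 difference 2.49 ± 0.34, adjusted p = 0.00489, limma). As in Aldoc, the clones were highest and CCG1423 lowest. Pdk1, the kinase that turns off pyruvate dehydrogenase, had 4.22, 3.98, 2.57, 4.78 and 4.64, with 4 probes between 0.05 and 2.23. Egln1, the oxygen sensor PHD2, had 5.99, 6.01, 4.41, 6.49 and 6.17. Slc2a1, the glucose transporter GLUT1, had 4.86, 5.25, 4.36, 5.95 and 5.7. Vegfa, the angiogenic growth factor, had 2.23, 2.48, 1.69, 3.39 and 2.80. Eno2, the neuronal enolase, was the member that passed lower, with 1.63, 0.41, 3.11, 1.52 and 1.11, while Gapdh and Ndrg1 differed by -0.17 and -0.20. Egln1, Slc2a1, Vegfa, Gapdh and Ndrg1 were picked after their values were seen.

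The letters TACGTG of a hypoxia response element occurred in 10 of the 33 genes of this list with a promoter window (30.3%). The share was 4.46% of the measured genes with a window and 3.23% of all windows. Of the 15 genes that were 2-fold or more apart, 3 hold the letters. The list was drawn up from hypoxia and glycolysis genes, so its share describes the list and not this comparison. Egln1 (chr8:124949292-124949349, minus strand) and Pgam1, a glycolytic mutase (chr19:41911730-41911787, plus strand), are printed as matches before the start in such genes.
Egln1: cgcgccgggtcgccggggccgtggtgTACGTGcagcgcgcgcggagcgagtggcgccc
Pgam1: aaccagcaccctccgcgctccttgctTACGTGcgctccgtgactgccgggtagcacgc

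Among MRTF-SRF targets, the genes of the pathway that CCG1423 inhibits, 1 gene passed the test between the clones and the inhibitor. That is 1 of 29 measured members, lower in the clones (0 to 1 under the alternatives), with 4 at an unadjusted p under 0.05. Over all genes 2.9% were called higher and 1.4% lower, so this count lies near the background and is no result about these members. Of the 29, 6 were above and 19 below the CCG1423 array in both clones, and the list median was -0.21 in each. Relative to wild type with TGF-β1 the median was -0.25 with CCG1423, -0.36 in clone 1 and -0.48 in clone 2. The list holds 37 genes, and those not measured on all 3 arrays are outside these counts. Among them, Fhl1 was at least 11-fold and 6.36-fold higher in clone 1 and clone 2 than with CCG1423. Tgfb1i1 was at least 7.29-fold and 5.03-fold higher with CCG1423. These bounds are against the weakest signal well above background on the dim array. Cnn2, a calponin of the actin cytoskeleton, was the member that passed, with levels of 2.34, 2.79, 3.38, 2.19 and 2.16 (log2 difference -1.20 ± 0.28, adjusted p = 0.0423, limma, and up to 0.101 under the alternatives).

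Acta2, the smooth muscle actin, had levels of 5.2, 5.49, 4.83, 4.90 and 4.99, a difference of 0.11 with a 95% confidence interval of -0.54 to 0.76. Both interventions were below wild type with TGF-β1, and the interval between them lies within 2-fold either way in this fit. Myl9, the myosin light chain, had 2.40, 3.73, 2.55, 2.20 and 1.75 (-0.58, interval -1.26 to 0.10). Vcl, the focal adhesion protein vinculin, had 3.53, 3.41, 2.99, 2.80 and 2.79 (-0.19, interval -0.82 to 0.43). Tagln, the smooth muscle protein transgelin, had -0.66, -0.38, -0.34, -0.71 and -1.30, with an interval of -1.5 to 0.17. The intervals of Tagln and Myl9 leave room for a difference past 2-fold.

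Srf itself had 1.72, 1.61, 1.75, 1.21 and 1.15 (-0.57, interval -1.21 to 0.08, which also leaves room for a difference past 2-fold). Mrtfa had 3.46, 4.03, 3.87, 3.63 and 3.57, and Mrtfb had 2.65, 3.56, 2.92, 3.20 and 3.42. None of the 16 measured MRTF-SRF regulators passed the test (limma; 3 at an unadjusted p under 0.05), and 0 were 2-fold or more apart in both clones; a list this short cannot be told apart from that background by a count of 0. Of 38 measured genes of actin turnover, 1 passed higher and 3 lower (0 to 1 and 0 to 3 under the alternatives), beside 2.9% and 1.4% of all genes. Capg, a filament-capping protein, had 0.78, 4.09, 4.65, 2.99 and 2.34 (-1.99 ± 0.33, adjusted p = 0.0108). Tmod1 and Tmod2, tropomodulins that cap pointed ends, were lower in the clones by -1.95 and -1.86. Eps8, a barbed-end capper, passed higher on its brighter probe (1.82) and gave -0.37 on the other.

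**Figure D4:**
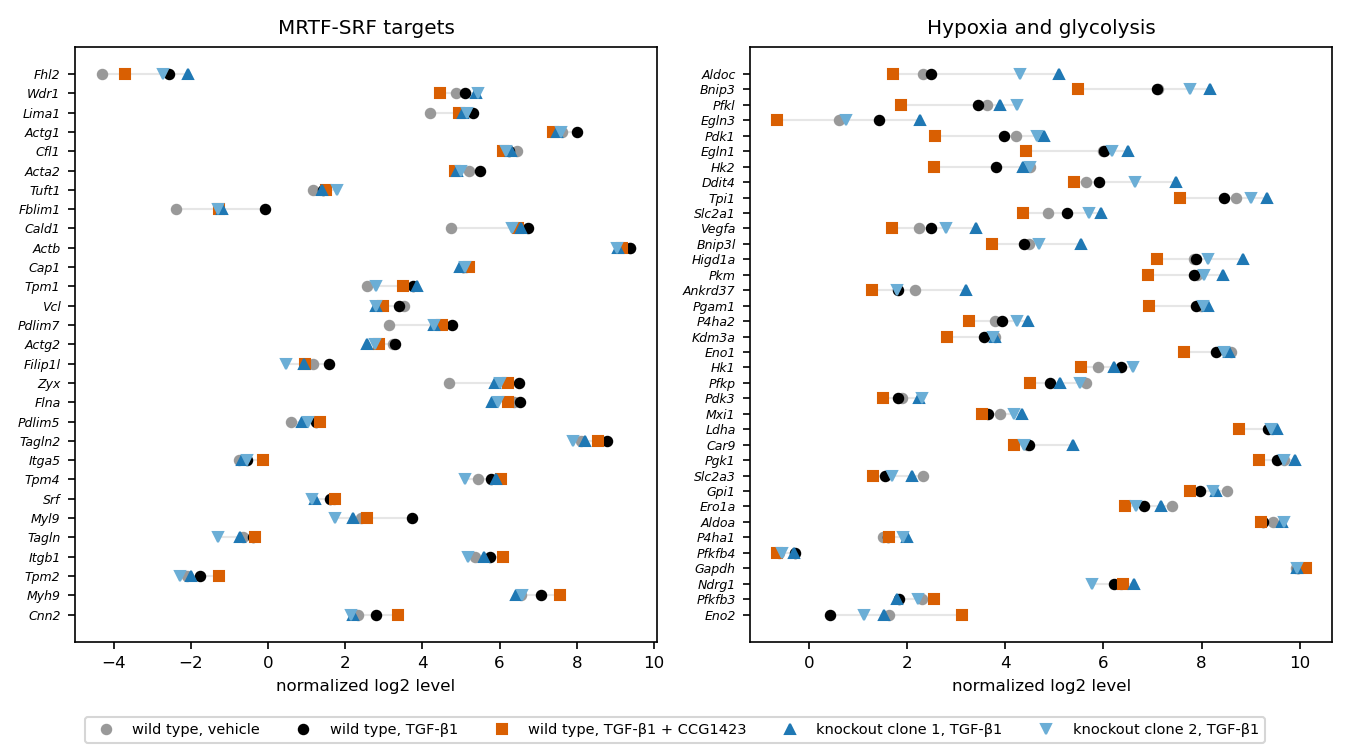
Normalized log2 level on the 5 arrays for the 29 measured MRTF-SRF targets (left) and the 36 genes of hypoxia and glycolysis (right), ordered by the difference between clones and CCG1423; 1 marker is 1 array. CCG1423 is the lowest of the 5 arrays in 4 and the highest in 10 of the 29 MRTF-SRF targets, and the lowest in 31 of the 36 genes on the right.

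CArG boxes, the elements that SRF binds, occurred in 8 of the 25 genes of the MRTF-SRF list with a promoter window (32%). The share was 1.63% of the measured genes with a window and 1.63% of all windows. The list was drawn up from targets of SRF, so its share describes the list and not this comparison. Cnn2 (chr10:79988518-79988579, plus strand), Srf (chr17:46556209-46556270, minus strand), Myl9 (chr2:156775277-156775338, plus strand) and Vcl (chr14:20929148-20929206, plus strand) are printed because their values are given above, with the boxes in capitals.
Cnn2: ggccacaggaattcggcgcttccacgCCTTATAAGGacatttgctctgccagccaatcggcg
Srf: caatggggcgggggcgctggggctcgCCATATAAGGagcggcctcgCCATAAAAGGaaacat
Myl9: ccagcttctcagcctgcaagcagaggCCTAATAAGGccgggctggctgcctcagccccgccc
Vcl: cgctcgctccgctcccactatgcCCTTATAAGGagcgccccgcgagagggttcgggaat
Of these genes, Cnn2 passed the test and the other 3 did not.

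Targets of TGF-β and SMAD were split. Of 26 measured members, 1 passed higher and 4 lower (0 to 3 and 0 to 5 under the alternatives), beside 2.9% and 1.4% of all genes. The list medians were 0.06 in clone 1 and -0.19 in clone 2. Smad7, the inhibitory SMAD, had 1.16 with CCG1423, 1.22 in clone 1 and 1.13 in clone 2 (0.01, interval -0.66 to 0.68). Id1 and Id3, inhibitors of helix-loop-helix factors, were lower in the clones by -1.62 and -1.47, and Tgif1, a SMAD corepressor, by -1.45. Cdkn1a, the cell cycle inhibitor p21, had 4.14, 3.94, 3.48, 4.58 and 5.12 and passed higher (1.37 ± 0.32, adjusted p = 0.0414, limma).

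In the extracellular matrix list, 4 of 27 measured members passed lower and 1 higher (2 to 9 and 0 to 2 under the alternatives; medians -0.56 and -0.43). Fn1, fibronectin, had levels of 6.15, 7.35, 8.38, 6.73 and 6.58 (-1.73 ± 0.32, adjusted p = 0.0166, limma), with 3 probes between -1.90 and -1.73. Col4a1, a basement membrane collagen chain, had 1.64, 2.75, 3.18, 1.31 and 1.35. CCG1423 was highest and the clones were nearer to vehicle in both genes. Col1a2, a chain of type I collagen, had -1.93, -2.44, -3.49, -0.72 and -0.95 and passed higher, and Col1a1 had -3.73, 1.16, -0.17, 2.33 and 0.93 and did not pass (adjusted p = 0.0681). Of 21 measured genes of epithelial-mesenchymal transition and adhesion, 4 passed lower (1 to 6 under the alternatives) and 0 higher. The 4 were Axl, S100a6, L1cam and Cdh11. Over all genes 1.4% passed lower and 2.9% higher.

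Among pigment cell genes, 8 of 31 measured members passed higher and 0 lower (1 to 10 higher under the alternatives), beside 2.9% and 1.4% of all genes. Of the 31, 21 were above the CCG1423 array in both clones, 2 were below and 8 lay on opposite sides, with medians of 0.43 and 0.67. Mitf, the master regulator of melanocytes, had levels of 6.59, 6.59, 5.36, 6.80 and 6.90 (1.49 ± 0.31, adjusted p = 0.0275, limma; 3 probes between 1.31 and 1.49). Mlana, a melanosome protein, had 7.98, 8.66, 7.01, 8.98 and 9.07. CCG1423 was lowest in both. In bulk RNA, fewer cells of a kind and less RNA per cell cannot be told apart. Tyr, tyrosinase, had 0.91, -0.80, -1.65, 1.11 and -0.18. Sox10, the neural crest factor, had 6.04 with CCG1423, 5.94 in clone 1 and 6.14 in clone 2 and did not pass (adjusted p = 1.0).

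Genes of DNA replication were also above the CCG1423 array in both clones: 27 of 34 measured members, against 5302 of all 12121 genes. Their medians were 0.84 and 0.57, and 3 passed (0 to 9 under the alternatives), beside 2.9% of all genes called higher. Mcm7, a subunit of the replicative helicase, had 5.27, 4.93, 3.22, 5.06 and 4.59 (1.61 ± 0.31, adjusted p = 0.0212, limma). Fen1 and Tk1 passed as well, with adjusted p = 0.0444 and 0.0499. Of 33 mitosis genes, 0 passed (limma; 3 at an unadjusted p under 0.05), and Mki67, the proliferation marker, had 4.87 with CCG1423, 5.22 in clone 1 and 5.26 in clone 2. Of 27 chaperones of the endoplasmic reticulum, 2 passed higher (0 to 6 under the alternatives), Creld2 and Sdf2l1. Hspa5, the chaperone BiP, differed by 0.61 (adjusted p = 0.327, limma). Beside the share over all genes, calls this few are no result about the members of these lists.

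**Figure D5:**
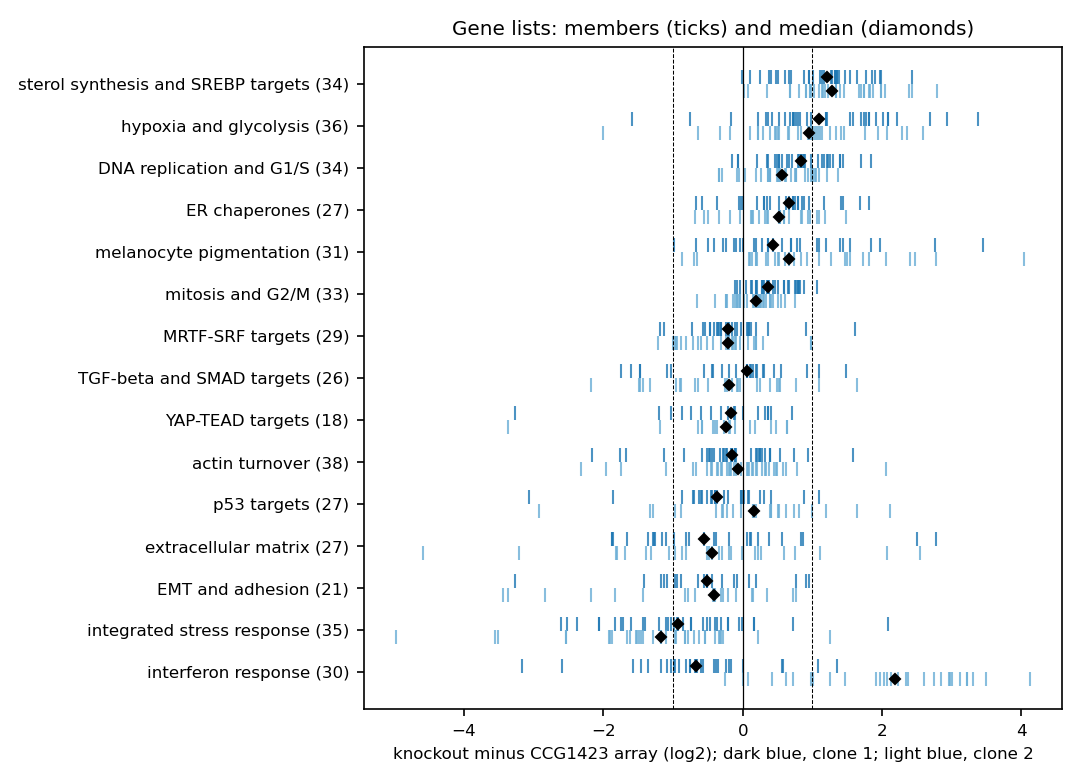
Log2 difference from the CCG1423 array for the measured members of 15 gene lists (ticks; the number of members is in parentheses) with the median of each clone (diamonds); dashed lines mark 2-fold. Sterol and hypoxia genes lie to the right and stress response genes to the left in both clones, MRTF-SRF targets lie near 0, and interferon genes split between the clones.

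The interferon response differed between the clones themselves. Of 30 measured members, 25 lay on opposite sides of the CCG1423 array in the 2 clones, and the list median was -0.68 for clone 1 against 2.18 for clone 2. Isg15, a ubiquitin-like interferon product, had levels of 2.97, 5.02, 3.62, 3.05 and 6.37. Usp18, the enzyme that removes it from proteins, had 0.31, 2.16, 0.92, -1.67 and 3.92. Clone 2 was highest and clone 1 at or near the lowest level in both genes. None of the 30 passed the test (limma), with 3 at an unadjusted p under 0.05. A count of 0 in a list this short cannot be told apart from the share over all genes. The test also takes its spread from the gap between the clones, so genes that split the clones get a wide one. Ifit1 had a gap of 3.47 and an SE of 1.00, against a median SE of 0.31 over all genes. The count of 0 is therefore not read as a result about these members. Irgm1, an interferon-induced GTPase, came nearest with an adjusted p of 0.0509. These values belong to single clones; Isg15 and Usp18 were picked after their values were seen.

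Of the 22907 named genes, a further 243 were well above background in both clones and on no probe with CCG1423. Another 424 were so with CCG1423 and in neither clone. For these, folds are lower bounds against the weakest signal well above background on the dim array. The bound was 2-fold or more in both clones for 85 of the 243 and 183 of the 424. That weakest signal was -3.92 with CCG1423, -4.2 in clone 1 and -3.66 in clone 2. The part of this in the 2 counts was not tested. Adm, the vasodilator adrenomedullin and a hypoxia gene, had levels of -0.42, -1.45, -4.26, 1.23 and 1.29 and was at least 35.6-fold and 36.9-fold higher in the clones. Ddc, an enzyme that makes dopamine and serotonin, was at least 17.5-fold and 14-fold higher. In the other direction, Akr1b7, an aldose reductase-like enzyme, was at least 55-fold and 37.9-fold higher with CCG1423 than in the clones and was not well above background in wild type with vehicle or TGF-β1. Tmem252 was at least 59.5-fold and 41-fold higher with CCG1423 and likewise below that limit on the other 4 arrays.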

How the data were processed

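Each of the 5 arrays came with its scanner output from Agilent Feature Extraction 12.0.3.1, per the file headers. The deposited intensity used, the processed signal, is background-subtracted and not normalized between arrays, and the deposited 0 or 1 flags for outliers and signal well above background (other) come from the same software. The deposited value table repeats this intensity, scaled by 1 constant per array (log2 of -0.01, 0.12, 0.34, -0.17 and -0.08 for vehicle, TGF-β1, CCG1423, clone 1 and clone 2; column medians 26.9, 29.2, 27.5, 23.2 and 28.8). It is linear and not centred, and the rule behind the constants is unknown.

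Control spots (3671 of 62976) and outlier spots (107 to 141 per array) were left out, the log2 signal was averaged over spots of a probe, and each array's 75th percentile was subtracted. Of 56595 probes, 32988 were named for 22907 genes by RefSeq accession through a GRCm38.p6 gene table; 23607 stayed unnamed. The array's own build is older, so no probe positions are given, and the promoter coordinates are those of the RefSeq promoter table (GRCm38.p6). The brightest probe stood for each of the 7897 genes with several.

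The fit used limma 3.58.1 in R 4.3.3 (lmFit, eBayes with trend) with 4 groups over the 5 arrays, and p-values were adjusted by Benjamini-Hochberg. It was tested on simulated data in which a gene had the same spread on all 5 arrays. Such data cannot check whether the CCG1423 array varies like the clones. Other steps ran in Python 3.11.15 (pandas 2.3.3, numpy 2.4.6, matplotlib 3.10.9). Alternatives were other scalings, normexp background (offset 50), the deposited value table, the mean of probes, other filters, folds and fits, and each clone left out. For normexp the median signal was used in place of the mean signal, which is not a column of the files used here. The array number alone limits the precision.

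Members, lists and tests were chosen with earlier results of these data known. Named are Tmsb4x, Tmsb10 and a set of pathway genes. To these come the 15 highest and 15 lowest genes by the smaller clone difference with a level above the median. Up to 3 members per list and direction at 2-fold, up to 10 limma calls each way and 6 bounded genes each way complete the rule. Other genes were picked after their values were seen. Some genes that the rule takes are not reported here.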

Additional observations from a re-analysis of the deposited data

How the results depend on the processing

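No paired analysis was possible because every label carries replicate 1 and the CCG1423 group has 1 array. Of the 122 named genes, 89 passed the test and 39 of these passed under every alternative fit; none of those reversed. Calls were lost in 49 genes with the mean of probes, 24 with normexp, 20 without the trend, 10 with quantile normalization, 3 with the deposited value table and 1 with 3 arrays in the fit. Genes 2-fold higher in both clones (527) numbered 914 with no filter on dim probes, 1407 at 1.5-fold, 130 at 3-fold and 987 over all probes, an alternative chosen after seeing the data. Genes 2-fold lower (286) numbered 155 with normexp, 704 with a filter on at least 1 group, 978 with no filter, 856 at 1.5-fold, 82 at 3-fold and 674 over all probes. With 1 clone left out, 872 to 912 were higher and 528 to 531 lower, since 1 clone then has to pass. Calls higher (352) numbered 140 with normexp, 47 with the mean of probes, 867 with no filter and 189 without the trend. Calls lower (170) numbered 83, 31, 598 and 113 under the same settings, 311 with a filter on at least 1 group and 294 over all probes. Apart from the number of genes tested and of clones that must pass, the cause was not tested. The deposited value table moved the median of all genes to -0.15 in clone 1 and 0.15 in clone 2, and no filter moved it to -0.19 and 0.21. The share higher among genes 2-fold apart was 64.8%, between 57.2% and 69.8% under the scalings and background correction, 49.5% with a filter on at least 1 group and 48.3% with no filter. List medians over the scalings, the background correction and the mean of probes ran from 1.1 to 1.28 for sterol genes, -1.14 to -0.95 for the stress response, 0.88 to 1.06 for hypoxia and -0.36 to -0.13 for MRTF-SRF targets. Dim probes carry the least certain levels.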

Other observations

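The lists not yet described are read against the 2.9% of all genes called higher and the 1.4% called lower. Of 27 measured p53 targets, 2 passed lower (Gadd45a and Plk2) and 1 higher (Cdkn1a). Of 29 NRF2 targets, 1 passed higher (Gsta2) and 3 lower: Slc7a11, the glutathione S-transferase Gstm1 (3.39, 2.15, 3.46, 2.03 and 2.03 in the order vehicle, TGF-β1, CCG1423, clone 1 and clone 2) and Osgin1. Hmox1, the heme oxygenase of that response, had levels of 4.93 with CCG1423, 5.25 in clone 1 and 5.10 in clone 2 and did not pass. Among 22 immediate-early genes, Maff and Dusp6 passed higher and Klf4 and Atf3 lower. Of 18 cytosolic heat shock genes, 34 genes of lysosome and autophagy and 18 housekeeping genes, 0 passed in either direction (limma), with 2, 9 and 0 of them at an unadjusted p under 0.05.

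Of the genes 2-fold or more higher in both clones, 142 had several measured probes; all probes were 2-fold or more higher in 79 of them and 1 probe only in 55. Of the genes 2-fold or more lower, 85 had several, all of them lower in 53 and 1 only in 27. Casp4, the inflammatory caspase, passed lower on its 1 probe with the clones 19.5-fold and 4.22-fold below CCG1423, so the clones differed from each other by more than 4-fold there.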
